A study of Arabidopsis thaliana with 6 samples.

Results

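A set of 71 *Arabidopsis thaliana* genes had more counts in both *sep1 sep2* libraries than in any of the 4 other libraries of a flower RNA-seq experiment. Levels are given as CPM, the raw count of a gene scaled by the total count of its library. The genes were selected on these values. A gene was taken when its mean over the 6 libraries was at least 2 CPM and when its lower *sep1 sep2* value was at least 2 times the highest of the other 4 values. The 71 genes are 0.405% of the 17520 genes averaging 2 CPM or more, out of 33610 genes in the count tables. Because the values of *sep1 sep2* against the other genotypes chose these genes, those differences are a description, and the counts of these genes called in those comparisons are no evidence for them. CPM is not corrected for gene length, so values are compared between libraries and not between genes.

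The libraries were made from inflorescence meristems with their younger flower buds, the oldest at stages 10 to 11, with 2 libraries for each of 3 genotypes. These were *sep1 sep2 sep3* expressing *SEP3*, from 2 independent lines (line 1 and line 2), the *sep1 sep2 sep3* triple mutant (replicates 1 and 2) and the *sep1 sep2* double mutant (replicates 1 and 2). All plants carried *sep1* and *sep2*, and no wild-type library was analysed here. The sources used here do not give the mutant alleles, the promoter that drives *SEP3* in the lines, or the time of day of harvest, and nothing says that replicates came from separately grown plants, so p-values measure the spread between these libraries. As a check of the labels, *SEP3* had 509.8 and 343 CPM in the SEP3 lines, 147 and 145 CPM in the *sep1 sep2 sep3*-labelled libraries and 130.4 and 133 CPM in *sep1 sep2*. *SEP3* counts were thus not lower in the *sep1 sep2 sep3*-labelled libraries than in the double mutant (log2 fold change 0.17, SE 0.15, FDR 0.502 by edgeR), and the genotype of these libraries rests on their labels. *SEP2* had 17.3 and 112 CPM in the SEP3 lines, 15.3 and 11.1 CPM in the *sep1 sep2 sep3*-labelled libraries and 79.1 and 43.5 CPM in *sep1 sep2*, and *SEP1* was at 1.96 to 5.51 CPM in all libraries. The totals ran over 24000063 to 31263376 counts per library, and 3 counts corresponded to 0.0960 to 0.125 CPM.

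SEPALLATA proteins are MADS transcription factors that act in complexes with other floral MADS proteins to set the identity of flower organs. None of the 71 genes was on the marker lists of floral tissues, but these lists are short and the 71 genes few, so this says little about the set. As background, 35 of the 71 fall into 6 roles by their annotation, assigned after their values were seen, and most of these roles belong to programmes that act in every organ of the plant. One is the rapid response to touch, wounding, cold and pathogens, in which ERF, DREB, WRKY and zinc finger transcription factors are induced within a short time after a stimulus. The other is the circadian clock, in which the morning proteins CCA1 and LHY bind the evening element AAAATATCT and repress genes that peak in the evening. When CCA1 and LHY decline, the evening genes are expressed, and several of them feed back on the morning genes.

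The ratio of the lower *sep1 sep2* value to the highest other value had a median of 2.65 over the 71 genes. It was at least 3 in 26 genes, at least 5 in 14 and at least 10 in 5, with values under 3 counts set to 3 counts. The genes just inside the threshold were AT3G62860, *ERF2* and AT2G27830, with ratios of 2.0037, 2.0136 and 2.0234. Just outside were *COR47*, AT1G56150 and *NGA4*, with 1.9965, 1.9906 and 1.985. The highest of the 4 other values was that of SEP3 line 2 in 31 genes, of *sep1 sep2 sep3* replicate 1 in 25, of SEP3 line 1 in 11 and of *sep1 sep2 sep3* replicate 2 in 4. Of the 25458 genes with a count in any library, 7.3% were lower in the *sep1 sep2 sep3*-labelled libraries than in *sep1 sep2* by edgeR's quasi-likelihood test (log2 fold change below -1 and FDR under 0.05), as were 70 of the 71 genes, with *FKF1* as the exception. In the SEP3 lines 1.14% of all genes and 67 of the 71 (all but AT1G56300, *FKF1*, *GRP7* and *RbcX1*) were lower than in *sep1 sep2* by the same test, and 0.365% of all genes and 0 of the 71 were higher. These counts of members follow from the rule.

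**Figure D1:**
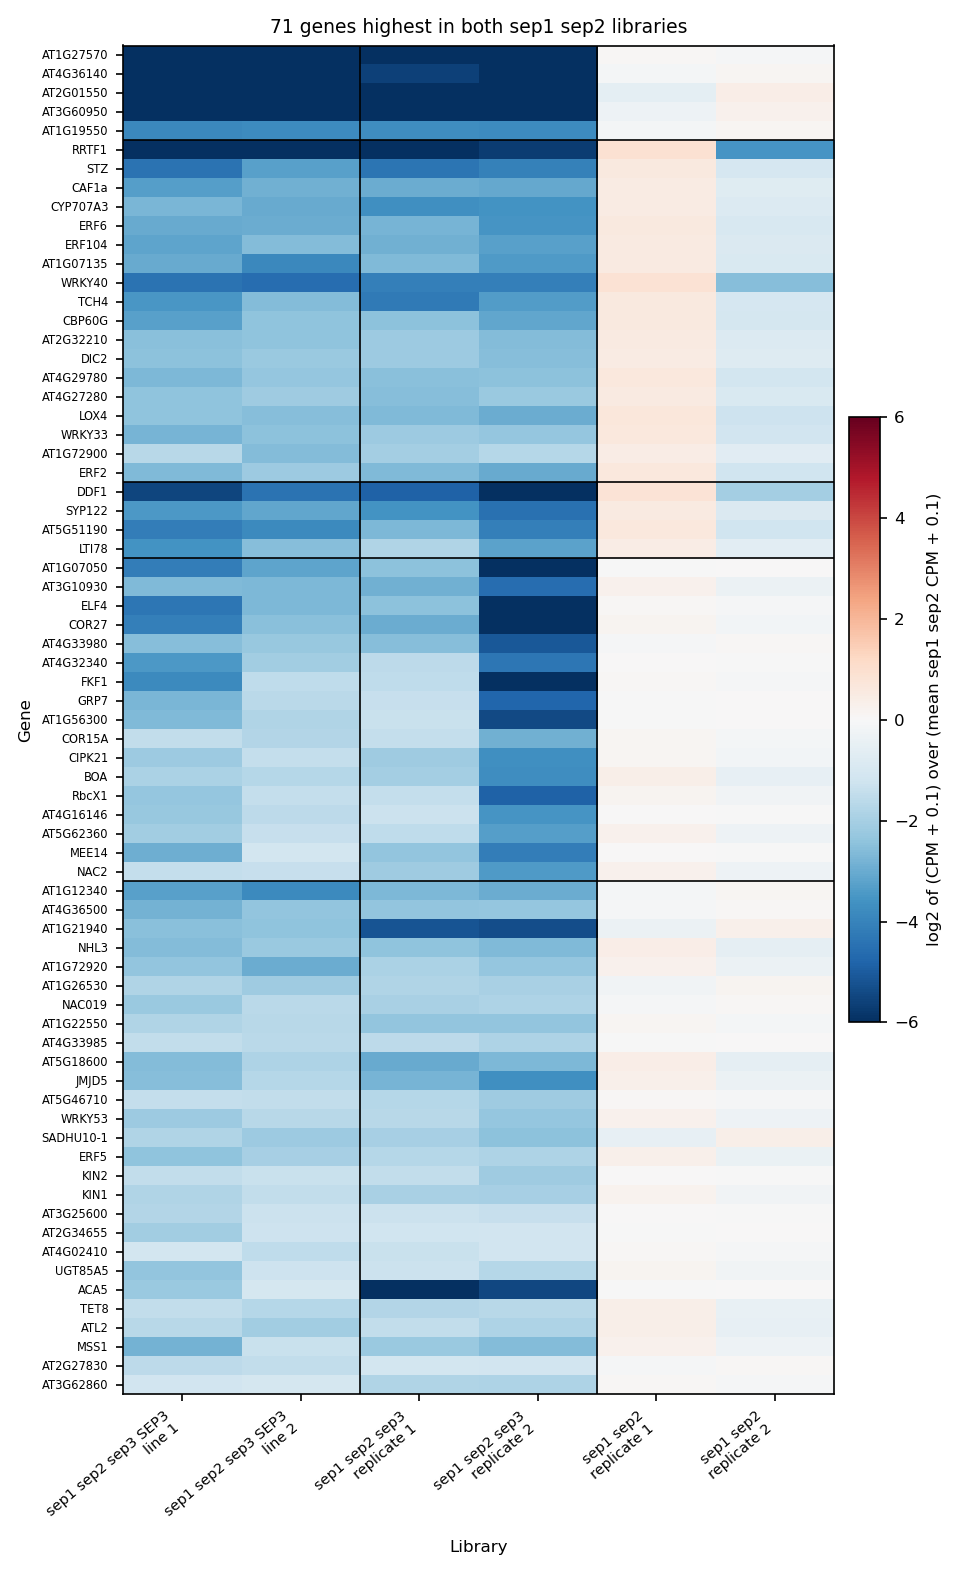
Heat map of the 71 genes (rows) in the 6 libraries (columns). Color gives the log2 of CPM plus 0.1 over the mean *sep1 sep2* CPM plus 0.1, and colors saturate at 6 in either direction. Lines divide, from the top, the 5 genes with a ratio of at least 10, 18 genes over 2-fold higher in replicate 1 than replicate 2 of *sep1 sep2*, 4 genes for which this held in both *sep1 sep2* and *sep1 sep2 sep3*, 17 for which it held in *sep1 sep2 sep3* only, and the other 27.

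The replicates of a genotype differed for many of these genes, and mostly in one direction. In the *sep1 sep2 sep3*-labelled libraries, 22 of the 71 were over 2-fold higher in replicate 1 than in replicate 2 and 2 were over 2-fold lower, where 1.44% of the genes averaging 2 CPM or more were over 2-fold higher in replicate 1. In *sep1 sep2*, 22 genes were over 2-fold higher in replicate 1 and 0 were over 2-fold higher in replicate 2, against 1.23% of the genes averaging 2 CPM or more higher in replicate 1. The rule used the value of every library, so these counts are a description. Only *DDF1*, *SYP122*, AT5G51190 and *LTI78* were in both groups of 22, and *DDF1* and AT4G36140 entered the first with at most 4 counts in a library. In the SEP3 lines 13 genes were over 2-fold higher in line 2 and 2 in line 1, against 0.639% of the genes averaging 2 CPM or more higher in line 2. The shares of all genes over 2-fold higher in the other replicate or line were not counted. Some of the 71 genes thus varied among the *sep1 sep2* libraries, some among the other libraries, a few among both, and others among neither.

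**Figure D2:**
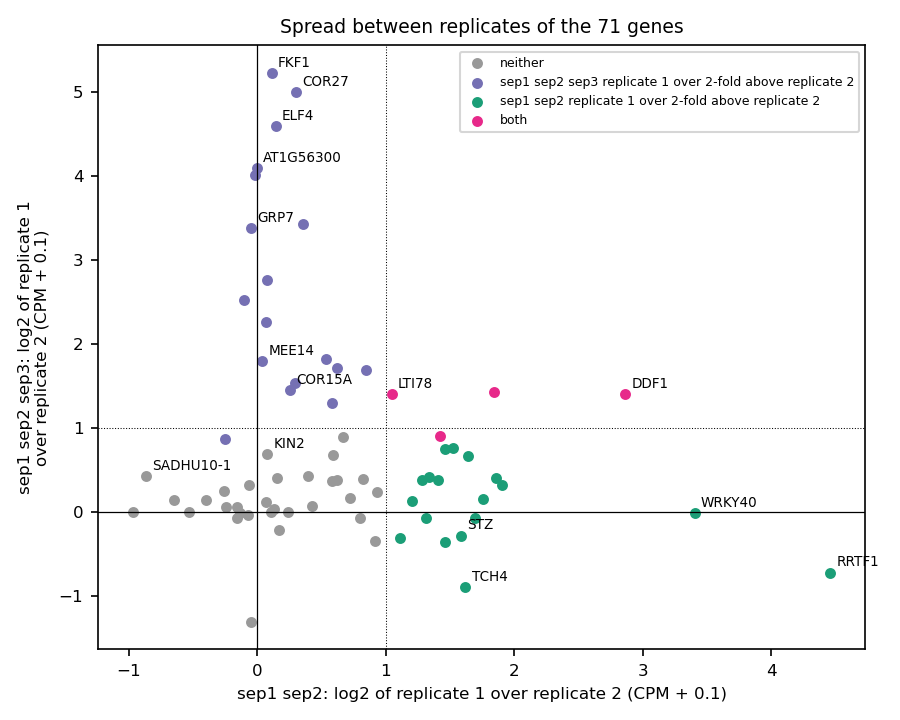
Log2 ratio of replicate 1 to replicate 2 of *sep1 sep2 sep3* (vertical) against that of *sep1 sep2* (horizontal) for the 71 genes, after 0.1 CPM was added to each value. Colors give genes over 2-fold higher in replicate 1 by CPM alone, so a few colored points lie just under the dotted lines at 2-fold. Clock and evening genes such as *FKF1*, *COR27* and *ELF4* lie along the vertical axis, and *RRTF1*, *WRKY40* and *TCH4* along the horizontal one.

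The group that varied in the *sep1 sep2 sep3*-labelled libraries held 4 of the 5 clock and light genes. AAAATATCT was found on either strand between 250 bases before and 50 bases after the start of 12 of the 71 genes (16.9%), against 2.85% of 25371 tested genes with a sequence in the reference. It was found in 10 of the 22 genes that were over 2-fold higher in replicate 1 than replicate 2 of the *sep1 sep2 sep3*-labelled libraries (45.5%) and in 0 of the 22 genes for which this held in *sep1 sep2*. A match describes the letters and not a bound site. The 100 bases before the annotated start of 5 of these genes show where the element lies. The element or its reverse complement is in capitals, each sequence is 5′ to 3′ on the strand of the gene, from the TAIR10.1 assembly of RefSeq.
GRP7: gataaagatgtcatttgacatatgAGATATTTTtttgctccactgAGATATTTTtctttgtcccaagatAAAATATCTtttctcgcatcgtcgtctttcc
MEE14: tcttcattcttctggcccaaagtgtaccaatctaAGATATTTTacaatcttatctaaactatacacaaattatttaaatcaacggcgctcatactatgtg
BOA: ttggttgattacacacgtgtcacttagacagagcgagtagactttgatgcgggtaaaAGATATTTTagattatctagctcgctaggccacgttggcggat
RbcX1: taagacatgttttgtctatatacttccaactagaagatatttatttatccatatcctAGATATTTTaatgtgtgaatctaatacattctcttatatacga
AT5G62360: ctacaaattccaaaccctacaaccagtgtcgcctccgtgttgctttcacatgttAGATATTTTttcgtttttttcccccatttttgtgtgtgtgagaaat

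The sequences lie at chr2:9266558-9266657 (minus strand), chr2:6922162-6922261 (minus strand), chr5:24003788-24003887 (plus strand), chr4:2118618-2118717 (minus strand) and chr5:25040440-25040539 (plus strand). *GRP7* holds 3 copies and the other 4 genes hold 1. *FKF1*, AT1G56300, *JMJD5*, AT4G16146, AT4G33980 and AT5G46710 also had the element in the window. In windows from 1000 bases before the start, a size chosen after seeing the data, 22 of the 71 genes (31.0%) and 7.58% of tested genes held it.

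*ELF4*, whose protein is part of the evening complex that represses morning genes, had 1.86 and 6.0 CPM in the SEP3 lines, 7.08 and 0.196 CPM in the *sep1 sep2 sep3*-labelled libraries and 40.8 and 36.9 CPM in *sep1 sep2*. *FKF1*, a blue-light receptor that promotes flowering in long days, had 4.16 and 20.9 CPM in the SEP3 lines, 20.8 and 0.457 CPM in the *sep1 sep2 sep3*-labelled libraries and 62.8 and 58.0 CPM in *sep1 sep2*. *COR27*, a clock- and cold-regulated gene, had 2.30 and 7.13 CPM in the SEP3 lines, 5.18 and 0.0653 CPM in the *sep1 sep2 sep3*-labelled libraries and 45.8 and 37.1 CPM in *sep1 sep2*. In all 3 genes the *sep1 sep2* libraries were close to each other, replicate 2 of *sep1 sep2 sep3* was lowest, and line 1 was below line 2.

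*GRP7*, a clock-regulated RNA-binding protein, had 499 and 1089 CPM in the SEP3 lines, 1281 and 123 CPM in the *sep1 sep2 sep3*-labelled libraries and 3250.4 and 3365 CPM in *sep1 sep2*. Its *sep1 sep2* mean of 3308 ± 80.9 CPM (SD, n = 2) was the largest count of the 71 genes. *MEE14*, annotated as maternal effect embryo arrest 14, had 23.9 and 83.8 CPM in the SEP3 lines, 35.3 and 10.1 CPM in the *sep1 sep2 sep3*-labelled libraries and 184 and 179 CPM in *sep1 sep2*. AT1G07050, which encodes a CCT motif protein of the type found in clock and flowering regulators, had 1.02 and 2.17 CPM in the SEP3 lines, 3.62 and 0.131 CPM in the *sep1 sep2 sep3*-labelled libraries and 20.02 and 20.2 CPM in *sep1 sep2*. In these 3 genes too, replicate 2 of *sep1 sep2 sep3* was lowest of the 6 libraries and the *sep1 sep2* libraries were nearly equal.

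AT1G56300, a DnaJ-type chaperone, had 10.1 and 18.3 CPM in the SEP3 lines, 25.7 and 1.404 CPM in the *sep1 sep2 sep3*-labelled libraries and 64.9 and 64.98 CPM in *sep1 sep2*. Over 775 bases it overlaps AT1G56290 on the opposite strand, and the sources used here do not say whether counting used the strand. *BOA*, a transcription factor related to LUX, had 2.78 and 3.17 CPM in the SEP3 lines, 2.55 and 0.718 CPM in the *sep1 sep2 sep3*-labelled libraries and 13.8 and 7.59 CPM in *sep1 sep2*, with 1896 bases overlapped by AT5G59580. Of the 71 genes 16 are overlapped by a gene on the opposite strand.

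The clock genes outside the set moved in both directions. Like the other lists, the clock list was chosen with earlier results of these data known, so its counts are a description. The list of 12 clock genes holds the 2 members *ELF4* and *FKF1*, and of the other 10, 4 were higher (*LHY*, *PRR9*, *RVE8* and *CCA1*) and 2 were lower (*TOC1* and *LUX*) in the *sep1 sep2 sep3*-labelled libraries than in *sep1 sep2*, where 0.939% and 7.3% of all genes were higher and lower. *LHY* had 40.2 and 25.2 CPM in the SEP3 lines, 17.2 and 103 CPM in the *sep1 sep2 sep3*-labelled libraries and 6.41 and 7.27 CPM in *sep1 sep2* (log2 fold change 3.18 for *sep1 sep2 sep3* against *sep1 sep2*, SE 0.55, edgeR FDR 0.00102). *CCA1*, its partner, had 33.1 and 21.9 CPM in the SEP3 lines, 24.9 and 66.9 CPM in the *sep1 sep2 sep3*-labelled libraries and 8.59 and 9.71 CPM in *sep1 sep2* (2.36, SE 0.34, FDR 0.000201). For both morning genes replicate 2 of *sep1 sep2 sep3* was highest and *sep1 sep2* lowest, the reverse of the order in *ELF4* and *FKF1*.

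*TOC1*, an evening repressor, had 52.6 and 83.4 CPM in the SEP3 lines, 63.7 and 36.1 CPM in the *sep1 sep2 sep3*-labelled libraries and 141 and 108 CPM in *sep1 sep2* (log2 fold change -1.30 for *sep1 sep2 sep3* against *sep1 sep2*, SE 0.23, edgeR FDR 0.00114). In the SEP3 lines against *sep1 sep2*, *LHY*, *PRR9*, *RVE8* and *CCA1* were again higher and *LUX* was lower by the same test, where 0.365% of all genes were higher and 1.14% lower, but these calls were 0 without *sep1 sep2* replicate 2, 1 higher and 0 lower without *sep1 sep2* replicate 1 or without SEP3 line 1, and 2 higher and 2 lower without SEP3 line 2. DESeq2 gave 1 higher and 0 lower, and filtering out low counts with edgeR left 0 of either. In the *sep1 sep2 sep3*-labelled libraries the higher calls numbered 4 with any 1 library left out, while the lower ones numbered 4 without *sep1 sep2 sep3* replicate 1 and 1 without replicate 2.

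**Figure D3:**
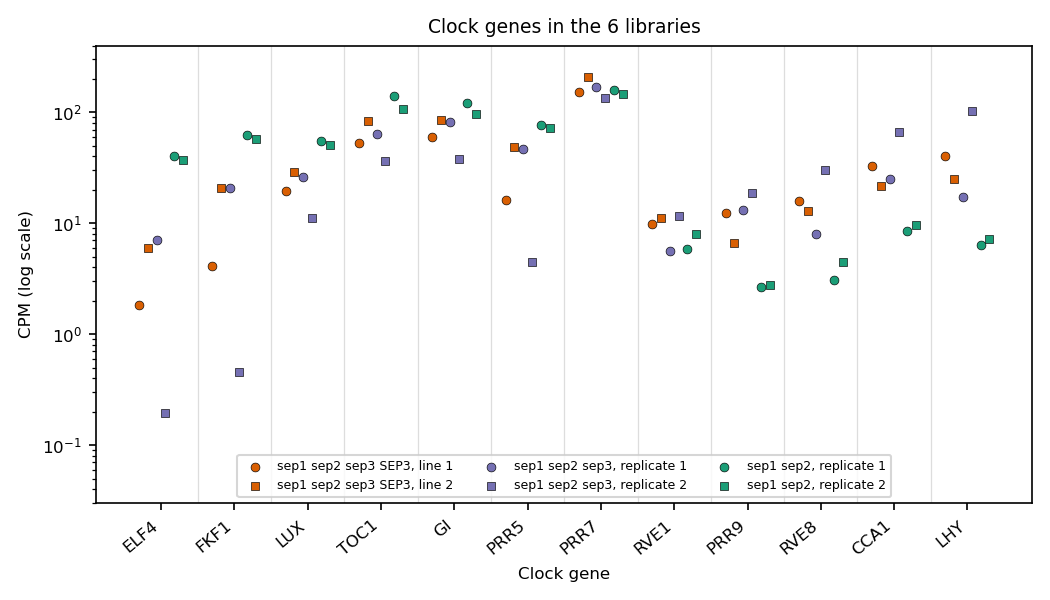
CPM (log scale) of the 12 listed clock genes in the 6 libraries, with SEP3 lines in orange, *sep1 sep2 sep3* in purple and *sep1 sep2* in green, circles for replicate or line 1 and squares for 2. *ELF4* and *FKF1* are the members of the set, and the *sep1 sep2* points are highest from *ELF4* to *PRR5* and lowest from *PRR9* to *LHY*.

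Cold-regulated genes formed another part of the set. *KIN2*, which encodes a small hydrophilic protein induced by cold and drought, had 487 and 539 CPM in the SEP3 lines, 495 and 307 CPM in the *sep1 sep2 sep3*-labelled libraries and 1398 and 1326 CPM in *sep1 sep2*. Its neighbor *KIN1*, 892 bases away with no gene between them, had 1.82 and 2.33 CPM in the SEP3 lines, 1.69 and 1.60 CPM in the *sep1 sep2 sep3*-labelled libraries and 7.68 and 5.67 CPM in *sep1 sep2*. *COR15A*, whose product protects chloroplast membranes during freezing, had 86.7 and 70.7 CPM in the SEP3 lines, 90.5 and 33.1 CPM in the *sep1 sep2 sep3*-labelled libraries and 262 and 219.9 CPM in *sep1 sep2*. In *KIN2* and *COR15A* the replicates of *sep1 sep2* lay close together and replicate 2 of *sep1 sep2 sep3* was lowest.

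*LTI78*, a cold- and drought-induced gene used as a stress reporter, had 5.82 and 12.1 CPM in the SEP3 lines, 20.2 and 7.57 CPM in the *sep1 sep2 sep3*-labelled libraries and 97.2 and 46.9 CPM in *sep1 sep2*, so that it differed over 2-fold between replicates of both mutants. ACCGAC and GCCGAC, the core forms of the CRT/DRE element to which DREB proteins bind, were searched after seeing the data on both strands of the 300-base window. They were found in 12 of the 71 genes (16.9%) and in 9.12% of tested genes. In windows from 1000 bases before the start the shares were closer, 20 of the 71 genes (28.2%) and 24.1% of tested genes. *COR15A* holds 2 copies and *LTI78* 3 in the 150 bases before the start, at chr2:17712331-17712480 (minus strand) and chr5:21240567-21240716 (plus strand). Capitals mark these forms or their reverse complement.
COR15A: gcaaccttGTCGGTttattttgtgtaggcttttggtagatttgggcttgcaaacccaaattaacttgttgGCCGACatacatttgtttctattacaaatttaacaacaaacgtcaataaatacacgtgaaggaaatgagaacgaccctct
LTI78: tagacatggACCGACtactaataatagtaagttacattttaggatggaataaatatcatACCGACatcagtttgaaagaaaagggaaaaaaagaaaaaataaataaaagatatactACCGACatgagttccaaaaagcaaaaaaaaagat

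The touch and wounding list holds 7 of the 71 genes, *TCH4*, *STZ* (listed as *ZAT10*), *WRKY33*, *WRKY40*, *WRKY53*, *ERF5* and *ERF6*. *WRKY40*, a repressor and activator in defence, had 0.704 and 0.625 CPM in the SEP3 lines, 0.905 and 0.914 CPM in the *sep1 sep2 sep3*-labelled libraries and 31.2 and 2.86 CPM in *sep1 sep2*. *STZ*, a zinc finger repressor induced by salt and cold, had 0.384 and 1.00 CPM in the SEP3 lines, 0.411 and 0.522 CPM in the *sep1 sep2 sep3*-labelled libraries and 15.7 and 5.14 CPM in *sep1 sep2*. *TCH4*, a touch-induced enzyme that remodels cell wall xyloglucan, had 3.07 and 5.88 CPM in the SEP3 lines, 1.81 and 3.46 CPM in the *sep1 sep2 sep3*-labelled libraries and 54.0 and 17.5 CPM in *sep1 sep2*. In each of these genes the 4 other libraries were low, and the lower *sep1 sep2* library was above them, as the rule requires.

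*WRKY33*, a regulator of defence against fungi, had 4.22 and 5.25 CPM in the SEP3 lines, 6.46 and 5.81 CPM in the *sep1 sep2 sep3*-labelled libraries and 46.0 and 13.6 CPM in *sep1 sep2*. *WRKY53*, known from leaf senescence, had 3.17 and 4.50 CPM in the SEP3 lines, 4.57 and 2.81 CPM in the *sep1 sep2 sep3*-labelled libraries and 17.5 and 11.6 CPM in *sep1 sep2*. The W-box forms TTGACC and TTGACT, to which WRKY proteins bind, were found on either strand of the 300-base window in 28 of the 71 genes (39.4%), in 12 of the 22 genes over 2-fold higher in replicate 1 of *sep1 sep2* (54.5%) and in 32.1% of tested genes. The 100 bases before the starts of *WRKY33* (chr2:16108135-16108234, plus strand) and *WRKY53* (chr4:12393983-12394082, minus strand) are shown because both genes are themselves WRKY genes, with the forms or their reverse complement in capitals.
WRKY33: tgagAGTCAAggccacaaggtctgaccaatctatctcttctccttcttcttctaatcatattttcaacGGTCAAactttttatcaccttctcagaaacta
WRKY53: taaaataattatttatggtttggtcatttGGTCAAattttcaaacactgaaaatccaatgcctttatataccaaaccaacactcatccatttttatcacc

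*ERF5*, an ethylene response factor, had 1.60 and 2.17 CPM in the SEP3 lines, 2.72 and 2.42 CPM in the *sep1 sep2 sep3*-labelled libraries and 11.2 and 6.78 CPM in *sep1 sep2*. *ERF6*, a close relative, had 0.864 and 0.917 CPM in the SEP3 lines, 1.07 and 0.588 CPM in the *sep1 sep2 sep3*-labelled libraries and 11.7 and 4.0 CPM in *sep1 sep2*. The 71 genes held 7 ERF and DREB genes in all, *ERF2*, *ERF5*, *ERF6*, *ERF104*, *RRTF1*, *DDF1* and AT5G51190. Their summed CPM came to 5.31 and 7.33 in the SEP3 lines, 7.98 and 5.49 in the *sep1 sep2 sep3*-labelled libraries and 96.5 and 26.9 in *sep1 sep2*, and 6 of the 7 were over 2-fold higher in replicate 1 than replicate 2 of *sep1 sep2*. *ERF2* and *ERF5* lie on chromosome 5 with 2 genes between them.

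The widest gaps between *sep1 sep2* replicates were in *RRTF1*, *WRKY40* and *DDF1*. *RRTF1*, a redox-responsive ERF gene, had 0 CPM in both SEP3 lines, 0 and 0.0653 CPM in the *sep1 sep2 sep3*-labelled libraries and 16.5 and 0.653 CPM in *sep1 sep2*, a 25.3-fold gap between replicates. *DDF1*, a DREB gene, had 0.0640 and 0.250 CPM in the SEP3 lines, 0.165 and 0 CPM in the *sep1 sep2 sep3*-labelled libraries and 13.1 and 1.71 CPM in *sep1 sep2*, a 7.66-fold gap. In replicate 2 of *sep1 sep2* both were low, and *RRTF1* had 16 counts there. Of the 3 WRKY genes 2 were over 2-fold higher in replicate 1, and the sum of the 3 was 8.09 and 10.4 CPM in the SEP3 lines, 11.9 and 9.53 CPM in the *sep1 sep2 sep3*-labelled libraries and 94.7 and 28.0 CPM in *sep1 sep2*.

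Other genes of the touch and wounding list were also lower outside *sep1 sep2*. Because this list was chosen with earlier results of these data known, its counts are a description and no independent support. Of the 11 listed genes that are not in the set, 7 were lower and 0 higher in the *sep1 sep2 sep3*-labelled libraries (7.3% of all genes were lower), and 6 were lower and 0 higher in the SEP3 lines (1.14%) by edgeR's test. None was higher in either comparison at an unadjusted p under 0.05, or by DESeq2. Of the 7, the largest changes in the *sep1 sep2 sep3*-labelled libraries were those of *ZAT12* (log2 fold change -3.34, SE 0.50, FDR 0.000301), *TCH3* (-2.99, SE 0.49, FDR 0.000615) and *DREB1B* (-2.86, SE 0.67, FDR 0.00884). Without *sep1 sep2* replicate 1 the counts were 4 lower in the *sep1 sep2 sep3*-labelled libraries and 1 in the SEP3 lines, and the SEP3 lines had 3 lower without line 2 and 1 with edgeR's filter on low counts. *TCH3*, a calmodulin-like gene, had 4.93 and 15.0 CPM in the SEP3 lines, 7.65 and 7.77 CPM in the *sep1 sep2 sep3*-labelled libraries and 98.5 and 27.3 CPM in *sep1 sep2*, so its replicates differed as those of the members did.

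The jasmonate list, also chosen with earlier results of these data known, holds 1 of the 71 genes. *LOX4*, a lipoxygenase of jasmonate synthesis, had 4.61 and 4.08 CPM in the SEP3 lines, 3.79 and 3.004 CPM in the *sep1 sep2 sep3*-labelled libraries and 38.9 and 10.3 CPM in *sep1 sep2*. Of the 20 other listed genes, 4 were lower (*LOX3*, *AOC3*, *JAZ7* and *JAZ8*) and 1 was higher (*AOC1*) in the *sep1 sep2 sep3*-labelled libraries, and 4 were lower (*LOX3*, *AOC3*, *JAZ1* and *MYC2*) and 0 higher in the SEP3 lines by edgeR's test (1 at an unadjusted p under 0.05, and 0 by DESeq2). Over all genes, 7.3% were lower and 0.939% higher in the first comparison, and 1.14% lower and 0.365% higher in the second. Each of these counts of 4 was 0 without *sep1 sep2* replicate 1, and the first was also 0 without *sep1 sep2 sep3* replicate 2 and 7 without *sep1 sep2* replicate 2. The second was 1 without SEP3 line 1 and 2 without SEP3 line 2 or either replicate of *sep1 sep2 sep3*, and the 1 higher gene was lost without *sep1 sep2 sep3* replicate 2. *JAZ7* and *JAZ8* had under 3 CPM in every library. The other 18 of 21 gene lists, which cover flower organs, pollen, photosynthesis and other processes, held none of the 71 genes. The 71 genes are 0.405% of the genes averaging 2 CPM or more. With so small a share, short lists hold few or none by number alone. The rule also barred genes whose level in the SEP3 lines came near that of *sep1 sep2*.

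Genes of calcium signaling, the plasma membrane and immunity made up 11 of the 71. *NHL3*, a membrane protein related to the defence protein NDR1, had 14.3 and 18.6 CPM in the SEP3 lines, 16.3 and 13.8 CPM in the *sep1 sep2 sep3*-labelled libraries and 116 and 60.5 CPM in *sep1 sep2*. *TET8*, a tetraspanin of extracellular vesicles, had 30.2 and 25.9 CPM in the SEP3 lines, 24.98 and 26.4 CPM in the *sep1 sep2 sep3*-labelled libraries and 108 and 61.8 CPM in *sep1 sep2*. *CBP60G*, which promotes salicylate synthesis, was among the 4 of these 11 that were over 2-fold higher in replicate 1 of *sep1 sep2*. For *NHL3* and *TET8* the 4 other libraries lay within a narrow range. The 11 genes also include 3 TIR-type genes, AT1G72900, AT1G72920 and AT4G36140, of which the first 2 lie 4116 bases apart with 1 gene between them.

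AT4G29780, annotated as a nuclease, had 10.0 and 12.9 CPM in the SEP3 lines, 11.4 and 11.9 CPM in the *sep1 sep2 sep3*-labelled libraries and 101 and 31.0 CPM in *sep1 sep2*. *SADHU10-1*, a locus named after the Sadhu retroelements, had 21.6 and 16.7 CPM in the SEP3 lines, 18.8 and 14.0 CPM in the *sep1 sep2 sep3*-labelled libraries and 54.1 and 98.8 CPM in *sep1 sep2*. It was higher in replicate 2 of *sep1 sep2*, unlike 53 of the 71 genes, which were higher in replicate 1 (the share over all genes was not counted). AT3G10930, of unknown function, had a ratio of 5.53, with 0.768 and 0.750 CPM in the SEP3 lines, 0.658 and 0.131 CPM in the *sep1 sep2 sep3*-labelled libraries and 6.57 and 4.24 CPM in *sep1 sep2*.

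Few genes were near zero outside *sep1 sep2* while their *sep1 sep2* replicates were close. AT1G27570, annotated as a phosphatidylinositol 3- and 4-kinase family protein, had 0.0640 and 0 CPM in the SEP3 lines, 0 and 0 CPM in the *sep1 sep2 sep3*-labelled libraries and 17.3 and 16.04 CPM in *sep1 sep2*. It had 831 counts in *sep1 sep2*, against 2 in the 4 other libraries together. AT4G36140, a TIR-NBS-LRR disease resistance gene, had 0 and 0 CPM in the SEP3 lines, 0.0823 and 0 CPM in the *sep1 sep2 sep3*-labelled libraries and 8.07 and 9.63 CPM in *sep1 sep2*, with 440 counts in *sep1 sep2*, against 2 in the 4 other libraries. A floor of 3 counts covers counting error only, and 85.9 to 88.3% of the counts from 1 to 20 were even, as when both mates of a pair are counted.

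AT2G01550, listed in the count tables as AT2G01550.1, had 0 counts in the SEP3 lines, 0 in the *sep1 sep2 sep3*-labelled libraries, and 7.76 and 15.3 CPM in *sep1 sep2*. With 3 counts over the 4 libraries as the floor, *sep1 sep2* was 420.7-fold higher. AT3G60950, with a C2 domain and an endonuclease/exonuclease/phosphatase domain, also had 0 counts in the SEP3 lines and in the *sep1 sep2 sep3*-labelled libraries, and 5.26 and 7.63 CPM in *sep1 sep2*, 236-fold higher by the same floor. If both mates of a pair were counted, 3 counts are fewer than 3 pairs, so these ratios are not lower bounds. Reads that map to several places were left out by the authors, so genes with near-identical copies are uncertain. AT3G60950 is 99.97% identical over its whole span to AT3G61030, which had 0.128 and 0.208 CPM in the SEP3 lines, 0.0411 and 0 CPM in the *sep1 sep2 sep3*-labelled libraries and 4.39 and 5.96 CPM in *sep1 sep2*. Both copies thus had their counts in *sep1 sep2*.

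The nearest genes averaging 2 CPM or more did not share the difference of these loci. The 3 nearest such genes were taken on each side of AT1G27570, AT2G01550, AT3G60950, AT4G36140 and AT1G19550. Genes in between with lower counts were not examined. The mean of *sep1 sep2* was between 0.679 and 1.31 times the mean of the other 4 libraries, apart from AT1G27540 and AT1G19540. AT1G27540, the nearest such gene on one side of AT1G27570, averaged 8.29 CPM in *sep1 sep2*, against 27.5 CPM in the other 4 libraries, a ratio of 0.302 in the opposite direction. AT1G19550, a glutathione S-transferase family gene, had 4.48 and 4.75 CPM in the SEP3 lines, 4.98 and 4.799 CPM in the *sep1 sep2 sep3*-labelled libraries and 60.4 and 71.7 CPM in *sep1 sep2*. It is 95.3% identical over 69.6% of its span to the nearby AT1G19570, which had 460.3 to 547.7 CPM in the 6 libraries. All of its 708 bases are overlapped by AT1G19540 on the opposite strand, which averaged 1.97 CPM in *sep1 sep2*, against 4.43 CPM in the other 4 libraries.

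For a pair of copies the difference lay between the copies. AT1G12340, a cornichon family gene, had 1.15 and 0.750 CPM in the SEP3 lines, 1.73 and 1.44 CPM in the *sep1 sep2 sep3*-labelled libraries and 10.8 and 12.9 CPM in *sep1 sep2*. AT1G12390, 98.1% identical over the whole span, had 22.9 and 21.3 CPM in the SEP3 lines, 19.9 and 18.9 CPM in the *sep1 sep2 sep3*-labelled libraries and 5.30 and 5.88 CPM in *sep1 sep2*. The sums of both genes were 24.1 and 22.1 CPM in the SEP3 lines, 21.6 and 20.3 CPM in the *sep1 sep2 sep3*-labelled libraries and 16.1 and 18.8 CPM in *sep1 sep2*. Where AT1G12340 was high AT1G12390 was low, and the sum of both was not higher in *sep1 sep2*. *WRKY40*, *CIPK21*, AT1G72920, AT2G01550 and AT2G34655 also have stretches nearly identical to another place in the genome.

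The rule did not set whether the SEP3 lines or the *sep1 sep2 sep3*-labelled libraries were higher. It held both at or under 0.5 times the lower *sep1 sep2* value, so a gene whose level in the SEP3 lines came near that of *sep1 sep2* could not enter the set, and the share of the 71 genes called here is shaped by that limit. In the SEP3 lines 3 of the 71 were higher (4.23%) and 0 lower than in the *sep1 sep2 sep3*-labelled libraries by edgeR's test, against 5.74% and 0.55% of all genes tested. At an unadjusted p under 0.05, 9 were higher and 2 lower (the share over all genes was not counted). DESeq2 called 3 higher and 0 lower, and over all genes 1448 higher and 125 lower. The median log2 fold change was 0.04 for the 71 genes and 0.02 for all genes. Of the 66 genes with more than 3 counts in any of these 4 libraries, 61 had a log2 fold change between -1 and 1. The share of all genes in that range was not counted, so the 61 are a description. The values ran from -0.91 to 4.44. These values moved with the *sep1 sep2 sep3* replicates, of which replicate 1 was over 2-fold above replicate 2 in 22 of the 71 genes. The median log2 fold change of the 71 genes was 0.32 without replicate 1 and -0.11 without replicate 2.

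*ACA5* (AT1G08065), an alpha carbonic anhydrase gene, had 14.0 and 31.4 CPM in the SEP3 lines, 0.494 and 1.37 CPM in the *sep1 sep2 sep3*-labelled libraries and 64.6 and 66.7 CPM in *sep1 sep2*. Its log2 fold change in the SEP3 lines against the *sep1 sep2 sep3*-labelled libraries was 4.44 (SE 0.39, FDR 1.83e-06 by edgeR), and it was called in 14 of 14 other settings. AT1G21940, an uncharacterized gene, had 1.06 and 1.12 CPM in the SEP3 lines, 0.0823 and 0.0653 CPM in the *sep1 sep2 sep3*-labelled libraries and 4.99 and 7.88 CPM in *sep1 sep2*. Its log2 fold change was 3.73 (SE 0.55, FDR 0.000328), with 60 counts in the SEP3 lines and 4 in the *sep1 sep2 sep3*-labelled libraries, and it was called in 14 of 14 settings. In both genes the SEP3 lines lay above both *sep1 sep2 sep3*-labelled libraries, and below both of *sep1 sep2* as the rule requires.

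*JMJD5*, a jumonji-type demethylase gene that takes part in the clock, had 6.05 and 11.0 CPM in the SEP3 lines, 5.23 and 2.78 CPM in the *sep1 sep2 sep3*-labelled libraries and 44.9 and 28.2 CPM in *sep1 sep2*. It was close to both thresholds in the SEP3 lines against the *sep1 sep2 sep3*-labelled libraries (log2 fold change 1.01, SE 0.31, FDR 0.0453 by edgeR) and kept the call in 5 of 14 other settings, with a log2 fold change of 0.62 without *sep1 sep2 sep3* replicate 2 (FDR 0.442) and of 0.52 without SEP3 line 2 (FDR 0.482). It also lost the call without either replicate of *sep1 sep2* (FDR 0.0585 and 0.0604).

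**Figure D4:**
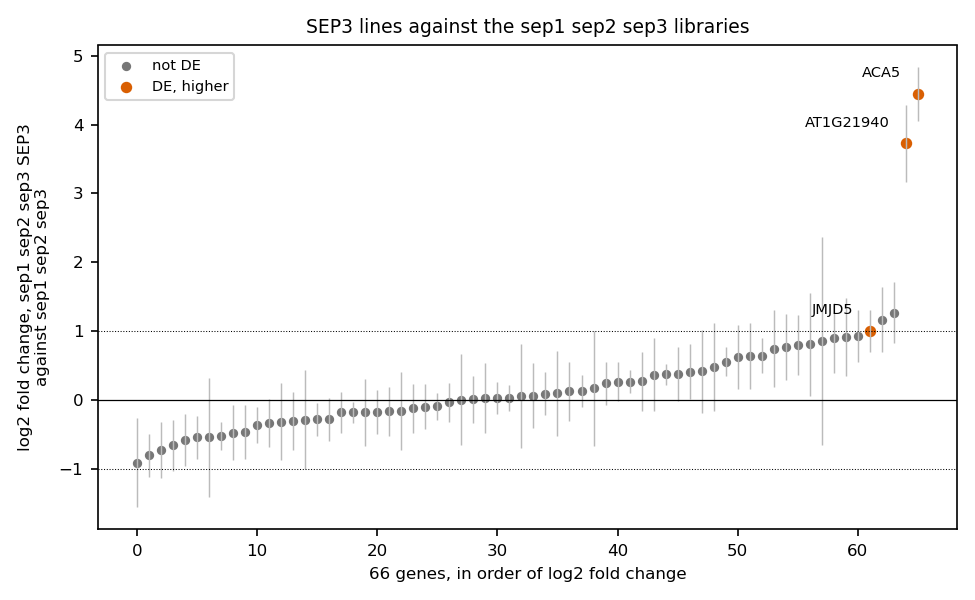
Log2 fold change (points) and standard error (bars) in the SEP3 lines against the *sep1 sep2 sep3*-labelled libraries for the 66 genes with more than 3 counts in any of these libraries, in order of size. Dotted lines mark 1 and -1. *ACA5* and AT1G21940 stand above the other genes, and *JMJD5* lies at the threshold.

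Other motifs were less frequent in the 71 genes, and not all of them were near their share in all genes. The G-box CACGTG, the same on both strands, was in the window of 11 of the 71 genes (15.5%) and of 8.06% of tested genes. The CArG box, to which MADS proteins bind, was in 2 of the 71 (2.82%) and in 3.13% of tested genes. CGCGTT, known as the rapid stress response element and searched after seeing the data, was in 8 of the 71 (11.3%) and in 3.53% of tested genes, and in 5 of the 22 genes over 2-fold higher in replicate 1 of *sep1 sep2* (22.7%). No motif share was tested.

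**Figure D5:**
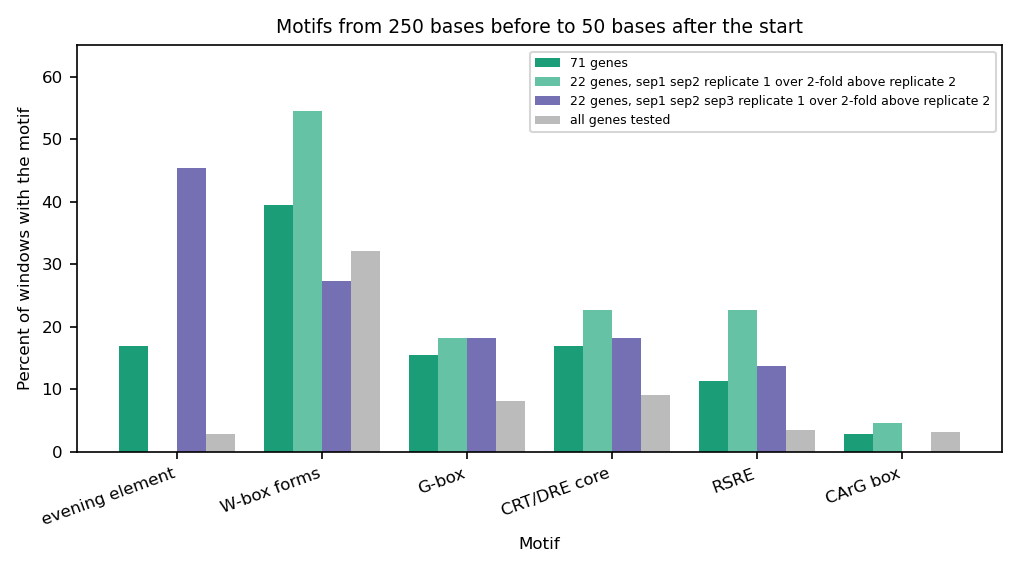
Percent of windows, from 250 bases before to 50 bases after the start, that hold each motif on either strand, for the 71 genes, for the 22 genes over 2-fold higher in replicate 1 than 2 of *sep1 sep2*, for the 22 for which this held in *sep1 sep2 sep3*, and for all 25371 tested genes with a sequence. The evening element stands at 45.5% in the purple bar and 0% in the light green bar, and the W-box forms at 54.5% in the light green bar. The CRT/DRE core and the rapid stress response element (RSRE) were added after seeing the data.

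The 71 genes were spread over the genome. Chromosomes 1 to 5 held 19, 10, 10, 14 and 18 of them, or 26.8, 14.1, 14.1, 19.7 and 25.4%, against 26.4, 15.2, 20.03, 15.0 and 23.3% of the genes averaging 2 CPM or more. *KIN1* with *KIN2*, and AT4G33980 with AT4G33985, were the only members next to each other with no gene of the count table between them.

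Markers of floral tissues also differed between genotypes. The summed CPM of the tapetum markers found (3 of 5, all with counts) was 273 and 198 in the SEP3 lines, 27.1 and 18.7 in the *sep1 sep2 sep3*-labelled libraries and 189 and 228 in *sep1 sep2*. For the 5 carpel and ovule markers it was 74.8 and 82.2 in the SEP3 lines, 16.8 and 11.4 in the *sep1 sep2 sep3*-labelled libraries and 72.3 and 78.4 in *sep1 sep2*. The 5 markers of flower meristems and buds summed to 626 and 543 CPM in the SEP3 lines, 708 and 686 CPM in the *sep1 sep2 sep3*-labelled libraries and 564 and 606 CPM in *sep1 sep2*. Markers of pollen, roots and siliques were low. The 5 of pollen summed to 3.39 and 1.58 CPM in the SEP3 lines, 0.247 and 0.261 CPM in *sep1 sep2 sep3* and 4.75 and 2.45 CPM in *sep1 sep2*. The 4 found of roots, 2 of them without counts, summed to 0.576 and 0.250, 0 and 0.0653, and 3.17 and 1.31 CPM in the same order. Those of siliques were at or under 0.653 CPM in every library. The 5 leaf markers, which flower buds also express, summed to 8606 and 7107 CPM in the SEP3 lines, 11939 and 14129 CPM in the *sep1 sep2 sep3*-labelled libraries and 9829.8 and 9332 CPM in *sep1 sep2*. In these bulk samples fewer cells of a type and less RNA per cell cannot be told apart, and the part of tissue makeup in the 71 genes was not tested.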

How the data were processed

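RNA was poly(A)-selected and sequenced as read pairs. The authors mapped reads to TAIR10 with STAR, without reads mapping to several places, and deposited raw counts per gene from featureCounts. The use of strand and software versions are not given in the sources used here. The authors' own comparison tables, with log2 fold changes and p-values, were not used.

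Genes with any count in the 6 libraries (25458) were tested in one fit with a mean per genotype (edgeR 4.0.16, limma 3.58.1, R 4.3.3, TMM normalization, quasi-likelihood test). Genes were called DE beyond 1 in log2 fold change, in either direction, at an FDR (Benjamini-Hochberg) under 0.05. On simulated counts with the depths of the SEP3 lines and the triple mutant (25205 genes), 52% of 2-fold and 100% of 4-fold changes were called. A 2-fold change has a log2 fold change of 1, the threshold itself, so the 52% reflects the threshold and is no measure of sensitivity. There were also 32 false calls. The changed genes averaged at least 2 CPM before the change. The median of the 71 genes ran from 1.60 CPM (*sep1 sep2 sep3* replicate 2) to 3.17 CPM (SEP3 line 2) in these libraries. Many of the 71 thus lay lower, and these shares need not hold for them. Alternatives were DESeq2 1.42.0, other scalings and filters, a replicate block and each library left out. Copies were found with blastn 2.17.0, and motifs in the TAIR10.1 genome of RefSeq. The sequence of 1 further gene with a motif is not reported here. Of 339 symbols on gene and marker lists, 318 were found, 11 were not found and 10 fitted several loci.

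Genes named are the 12 with most counts in *sep1 sep2*, the 8 with the largest ratio, listed members, DE members, those at the threshold, and the *SEP* genes. Members and lists were chosen with earlier results of these data known, and other genes were named after their values were seen.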

Additional observations from a re-analysis of the deposited data

How the results depend on the processing

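The 71 genes depended on the thresholds of the rule. A minimum mean of 5 CPM gave 42 genes, a fold of 1.5 gave 179 and a fold of 3 gave 26, while a minimum of 1 CPM gave 87, TMM-scaled CPM 84 and DESeq2 size factors 85. Leaving out 1 library gave 66 to 241 genes. These were 241 without *sep1 sep2* replicate 2 (64 of the 71 among them), 66 without *sep1 sep2* replicate 1 (54 of the 71), 236 without SEP3 line 1 and 121 without SEP3 line 2. The DE genes of the SEP3 lines against the *sep1 sep2 sep3*-labelled libraries among the 71 numbered 2 to 20 with 1 library left out, and 2 with the replicate block.

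Over all genes, 2098 were DE in the *sep1 sep2 sep3*-labelled libraries against *sep1 sep2*, with 4020 by FDR alone and 1375 to 2113 with 1 library left out. In the SEP3 lines against *sep1 sep2*, 383 were DE, with 164 after filterByExpr, 1050 by FDR alone and 197 to 397 with 1 library left out. In the SEP3 lines against the *sep1 sep2 sep3*-labelled libraries, 1601 were DE, with 3174 by FDR alone and 1062 to 1472 with 1 library left out.

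Same-numbered libraries did not deviate together (correlations of -0.0928, -0.0377 and 0.0465 over 17520 genes), so they were taken as unpaired. Across all settings the jasmonate genes outside the set that were lower numbered 0 to 8 in the *sep1 sep2 sep3*-labelled libraries and 0 to 6 in the SEP3 lines against *sep1 sep2*. With the replicate number as a block, 245 genes were DE in the SEP3 lines against *sep1 sep2*, with 2 higher and 0 lower among the clock genes outside the set. Levels under 3 counts, or 0.0960 to 0.125 CPM, were taken as not told from zero. If both mates of a pair were counted, 3 counts are fewer than 3 pairs, so the true limit lies higher.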
